A study of Mus musculus with 91 samples.

Results

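Fatty acid oxidation and ketone body genes were followed through mouse livers exposed to 8 chemicals and their vehicles. The set was a list of 34 genes, 10 of the peroxisome, 17 of the mitochondrion and 7 with related roles. It was matched by gene symbol to the platform's annotation, and 32 of the 34 were measured among 18193 genes in all. Acsl1 and Ucp2 were not analysed here. Expression was measured on 91 Affymetrix arrays, each with liver RNA of 1 adult male mouse on a C57BL/6J background, in 19 groups.

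Phenobarbital (PB) was given in drinking water at 0.05% (w/v) for 28 or 56 days, and its controls drank water (H2O) for the same time, with 5 mice in each group. All other groups were treated for 28 days. Cyproterone acetate (CPA, 160 mg/kg, with the last digit typed as a letter in the label) and 1,4-dichlorobenzene (DCB, 600 mg/kg) were given daily by gavage and share 1 corn oil control group (CO), each with 5 mice. CITCO (10 mg/kg, injected into the peritoneum) was given to 5 C57BL mice and to 5 mice of the strain given as C57BL/hCAR/hPXR, and each had 5 controls of its own strain given carboxymethylcellulose (CMC, cohort Co4 in C57BL). Piperonyl butoxide (PBO, 600 mg/kg, injected into the peritoneum, 4 mice) was compared with CMC cohort Co2 (5 mice). Wy-14643 (WY, 100 mg/kg by gavage, 5 mice), a synthetic agonist of PPARalpha, was compared with CMC cohort Co1 (4 mice). The groups labelled pioglitazone (Pio, 100 mg/kg by gavage, 5 mice) and methapyrilene (MePy, 1000 ppm in food, 5 mice) were compared with CMC cohorts Co5 and Co3 (4 mice each). MePy was given in food and Co3 received CMC, so chemical and way of dosing cannot be told apart in that comparison. The titles of the PB arrays at 28 days all end in "(2)", with no meaning given.

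Fatty acids enter mitochondria as carnitine esters and are shortened there by repeated cycles of dehydrogenation, hydration, a second oxidation and thiolysis, while very long chains are first shortened in peroxisomes. The acetyl-CoA that results feeds the citric acid cycle or, in the fasting liver, ketone bodies. PPARalpha, a nuclear receptor for fatty acids, activates the transcription of many of these genes, and its agonists enlarge and multiply the peroxisomes of rodent livers.

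The promoter sequence next to 4 members that rose after WY is shown, because PPARalpha binds DNA with RXR at paired copies of a short site. The 250 bases before each RefSeq start are given 5' to 3' on the gene's strand in build GRCm38.p6. Ehhadh lies on the minus strand (chr16:21787835-21788084), Hadhb on the plus strand (chr5:30155003-30155252), and Acadvl (chr11:70015429-70015678) and Acadm (chr3:153944644-153944893) on the minus strand. Capitals mark AGGTCA, a single copy of that site, in Acadvl and Acadm, and GGGCGG or CCAAT, 2 common promoter motifs added after the data were seen, in Ehhadh and Hadhb, each on either strand.
Ehhadh: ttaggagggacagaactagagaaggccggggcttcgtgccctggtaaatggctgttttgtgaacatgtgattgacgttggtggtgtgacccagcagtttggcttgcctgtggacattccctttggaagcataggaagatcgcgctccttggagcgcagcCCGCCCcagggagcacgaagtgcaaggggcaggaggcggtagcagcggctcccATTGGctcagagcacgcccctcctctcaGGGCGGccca
Hadhb: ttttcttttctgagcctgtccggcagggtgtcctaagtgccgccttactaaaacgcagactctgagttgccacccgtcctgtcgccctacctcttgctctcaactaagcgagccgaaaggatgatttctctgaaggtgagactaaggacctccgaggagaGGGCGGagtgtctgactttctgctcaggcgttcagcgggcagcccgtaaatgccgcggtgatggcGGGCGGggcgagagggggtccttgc
Acadvl: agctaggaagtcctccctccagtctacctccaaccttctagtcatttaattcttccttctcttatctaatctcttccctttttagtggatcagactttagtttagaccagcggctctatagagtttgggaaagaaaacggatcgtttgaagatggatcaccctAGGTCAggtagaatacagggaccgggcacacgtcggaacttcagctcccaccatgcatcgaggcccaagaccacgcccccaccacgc
Acadm: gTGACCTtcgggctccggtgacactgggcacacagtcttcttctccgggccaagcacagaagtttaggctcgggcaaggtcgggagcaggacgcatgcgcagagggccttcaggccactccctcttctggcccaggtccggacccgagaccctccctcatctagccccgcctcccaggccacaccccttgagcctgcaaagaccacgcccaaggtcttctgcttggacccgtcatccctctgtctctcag

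Of the 34 listed genes, 28 had 31 promoter windows, of 250 bases before and 50 after a start, in the table used. The paired site, written as a direct repeat of AGGNCA with 1 base between the copies and searched on both strands, was in 0 of these 31 windows and in 0.381% of all 32851 windows. The single site AGGTCA, which the paired site can contain, was found in 4 of the 31 (of Acadm, Acadvl, Cpt1a and Ucp3) and in 16.3% of all windows. GGGCGG was found in 21 of the 31 and in 35.7% of all windows, and CCAAT in 12 of the 31 and in 37.4%. The starts of Hadha and Hadhb, the paired subunits of the mitochondrial trifunctional protein, lie 272 bases apart on opposite strands, so that the Hadhb sequence above is also the upstream region of Hadha. A match is a description of letters, and a missing one says nothing of sites elsewhere.

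Log2 values on the arrays spanned 2.61 to 15.34 and their medians 5.18 to 5.36, and no array was a copy of another. Alb, the albumin gene of hepatocytes, lay between 15.04 and 15.26 on all arrays, and Adipoq, of fat cells, between 3.13 and 4.05. In these bulk samples fewer cells of a type and less RNA per cell cannot be told apart. The livers labelled Pio went against their label: Cyp2b10, a target of CAR, was 6.06 higher on the log2 scale than in Co5 (limma, adjusted p = 1.17e-15), while Fabp4 and Cidea, targets of the pioglitazone receptor PPARgamma, differed by -0.33 and -0.05 (adjusted p = 0.939 and 0.992). In the livers labelled MePy, Fabp4 was 3.37 and Cidea 3.11 higher than in Co3 (adjusted p = 0.000127 and 0.000599) and Cyp2b10 differed by -0.36 (adjusted p = 0.94). These 2 groups are therefore called by their labels throughout, and a direction drawn from them is that of the labelled arrays. Their control cohorts, Co5 and Co3, were assigned by the same labels, so each difference depends on that assignment. Of 7 PPARgamma targets, 5 rose in the livers labelled MePy and 5 rose after WY. A rise of these genes does not by itself single out PPARgamma here.

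A member was called changed in a comparison when its limma p, adjusted over all 18193 genes, was below 0.05. WY changed the most members, 16, all upwards, followed by CPA with 9, all downwards. PB at 28 days, PBO, DCB and the livers labelled MePy gave 1 or 2 calls each, and the other 4 comparisons gave 0. In all, 22 members were called in 1 or more of the 10 comparisons, where 18% of all genes were, and 10 in none: Hsd17b4, Pex19, Crat, Cpt2, Acads, Hadh, Etfa, Etfdh, Pdk4 and Ucp3. Cpt1a, Aldh3a2 and Vnn1 were each called in 3.

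**Figure D1:**
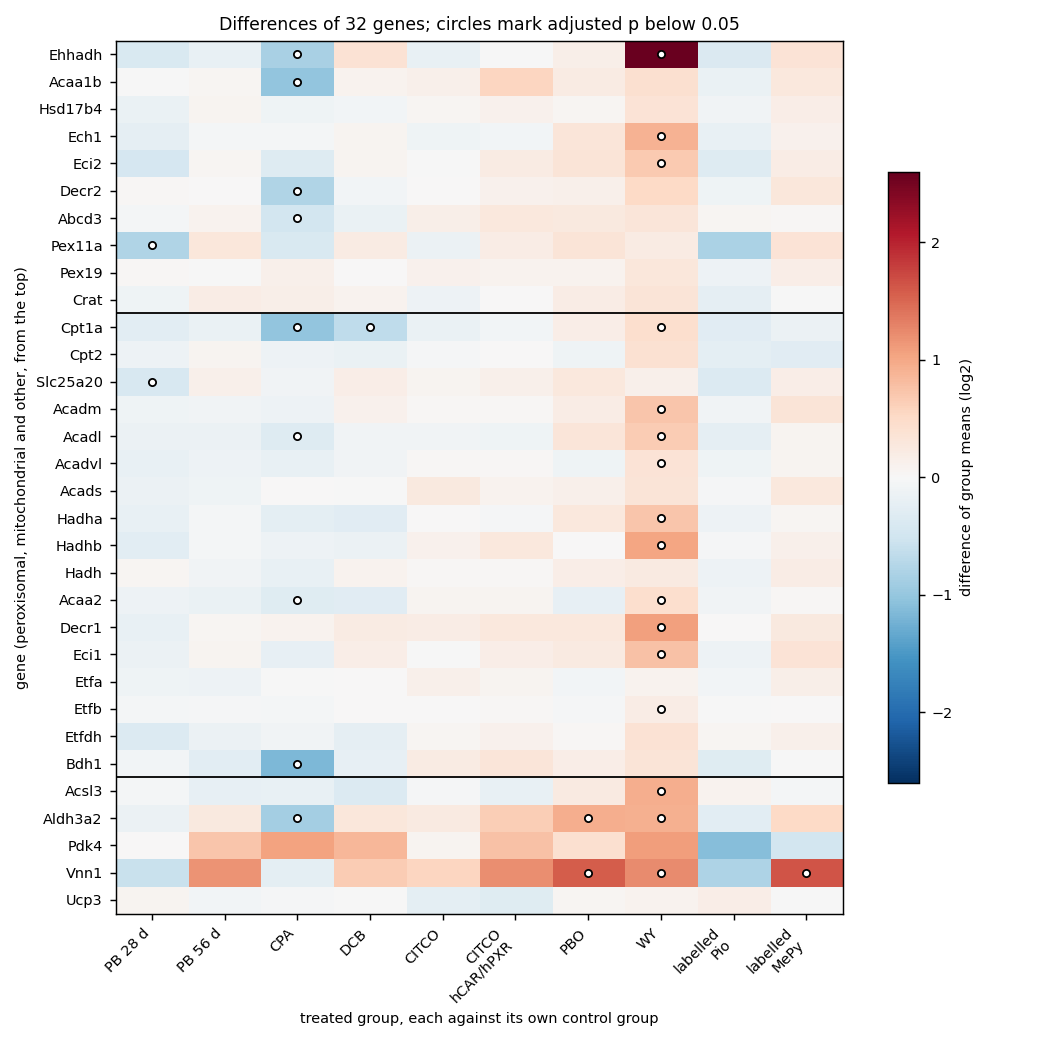
Difference of group means (log2, colour) for 32 genes in the 10 treated groups, each against its own control; circles mark an adjusted p below 0.05. The WY column holds 16 circles, all on higher values, and the CPA column 9, all on lower values.

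WY raised members of both organelles. Of 32 members 16 rose and 0 fell, where 5.55% of all genes rose and 5.09% fell, and all 32 had a higher mean than in Co1. The median difference was 0.43 over the members and -0.04 over all genes. Ehhadh, the peroxisomal bifunctional enzyme of hydration and second oxidation, had the largest difference. Its log2 values were 14.59, 12.90, 14.63, 14.09 and 14.47 in the 5 WY livers and 11.52, 11.47, 11.68 and 11.58 in Co1. The groups did not overlap, as in 6 members in all and in 4.09% of all genes, and the rise of 2.58 (SE 0.26, 5.96-fold) had a limma adjusted p of 1.27e-12.

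Among the other peroxisomal enzymes, Ech1, a dienoyl-CoA isomerase, rose by 0.90 (SE 0.13, limma adjusted p = 4.77e-07). Eci2, an enoyl-CoA isomerase for unsaturated chains, rose by 0.68 (SE 0.14, adjusted p = 0.000232). The remaining 7 of 10 peroxisomal members did not pass. Acaa1b, a thiolase, was measured at 14.95, 14.47, 14.98, 14.85 and 14.87 after WY and at 14.46, 14.30, 14.39 and 14.47 in Co1, with a difference of 0.42 (SE 0.15, adjusted p = 0.0628). Its values lie near the upper end of the scale, and its close relative Acaa1a shares 2 probe sets with it, which were left out. Decr2, the peroxisomal dienoyl-CoA reductase, differed by 0.52 (adjusted p = 0.0719), Abcd3, a transporter of the peroxisomal membrane, by 0.32 (adjusted p = 0.104) and Pex11a, a factor of peroxisome division, by 0.22 (adjusted p = 0.499).

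Of the 17 mitochondrial members 10 rose. The acyl-CoA dehydrogenases of medium (Acadm, 0.72, SE 0.12), long (Acadl, 0.66, SE 0.11) and very long chains (Acadvl, 0.37, SE 0.10) rose (adjusted p = 9.57e-06, 3.02e-06 and 0.0119), and that of short chains, Acads, differed by 0.33 (adjusted p = 0.149). Acadm was 13.62, 12.52, 13.46, 13.21 and 13.18 after WY and 12.26, 12.52, 12.51 and 12.61 in Co1. The second WY liver lay within the control range and the other 4 above it.

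Hadha and Hadhb, which share the promoter region shown above, both rose, by 0.73 (SE 0.16, adjusted p = 0.00119) and 1.02 (SE 0.20, adjusted p = 0.000175). Hadhb was 12.27, 11.09, 12.00, 10.99 and 11.84 after WY and 10.18, 10.64, 10.75 and 10.89 in Co1, without overlap. Decr1, the mitochondrial dienoyl-CoA reductase, rose by 1.06 (SE 0.16, adjusted p = 9.77e-07), the largest difference of a mitochondrial member. It was 12.82, 11.53, 12.59, 12.10 and 12.36 after WY and 10.63, 11.26, 11.35 and 11.62 in Co1, and again only the second WY liver lay inside the control range. Eci1, the mitochondrial enoyl-CoA isomerase, rose by 0.76 (SE 0.15) and Acaa2, the mitochondrial thiolase, by 0.44 (SE 0.11; adjusted p = 0.000255 and 0.00407). Co1 was itself low in Hadhb and Decr1. Their CMC cohort means spanned 0.93 and 0.52 without Co2, and 0.31 and 0.17 without Co1 and Co2. The highest group means were those of H2O at 28 days for Hadhb (12.06) and of DCB for Decr1 (12.29). The part of Co1 in these rises was not tested.

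Of the 3 carnitine shuttle members 1 rose. Cpt1a, the rate-limiting carnitine palmitoyltransferase of the outer membrane, rose by 0.44 (SE 0.15, limma adjusted p = 0.0487), and it was 11.53, 11.11, 11.54, 10.97 and 11.51 after WY and 10.77, 10.77, 11.04 and 10.96 in Co1. WY replicate 4 lay within the control range, and the call of Cpt1a was lost in 6 of 9 fits that each left out 1 array. Cpt2, its partner in the inner membrane, differed by 0.40 (adjusted p = 0.0571) and Slc25a20, the carnitine carrier, by 0.13 (adjusted p = 0.504). Etfb, a subunit of the flavoprotein that passes electrons to the respiratory chain, rose by 0.20 (SE 0.07, adjusted p = 0.0493), while its partner Etfa and the dehydrogenase Etfdh differed by 0.09 and 0.37 (adjusted p = 0.651 and 0.266). Bdh1, which interconverts the ketone bodies acetoacetate and 3-hydroxybutyrate, differed by 0.33 (adjusted p = 0.152).

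Among the 5 members with related roles 3 rose. Acsl3, an acyl-CoA synthetase, rose by 0.94 (SE 0.21, adjusted p = 0.00126) and Aldh3a2, the fatty aldehyde dehydrogenase, by 0.92 (SE 0.25, adjusted p = 0.00928). Vnn1, a pantetheinase that recycles the coenzyme A precursor, rose by 1.22 (SE 0.37, adjusted p = 0.0205). Its values were 12.90, 10.43, 12.51, 11.80 and 11.90 against 10.58, 10.77, 10.58 and 10.82, so that 4 WY livers lay above all controls and 1 below them. Pdk4, the kinase that turns off pyruvate dehydrogenase, was 10.08, 8.01, 10.01, 8.34 and 8.90 against 9.04, 8.58, 6.94 and 7.35, and its difference of 1.09 (SE 0.52) did not pass (adjusted p = 0.17). Ucp3, the uncoupling protein of muscle, differed by 0.10.

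Several of these calls were lost when 1 array was left out. Those of Cpt1a and Etfb were lost in 6 of 9 fits that each left out 1 array (WY replicates 1, 3 and 5 and Co1 replicates 1, 2 and 4), with a limma adjusted p of up to 0.139 and 0.202. They were lost as well in the fit of WY and Co1 alone (adjusted p = 0.0897 for Cpt1a and 0.29 for Etfb) and with the replicate number as a block (0.136 and 0.197). Against the mean of all 5 CMC cohorts Cpt1a differed by 0.25 (adjusted p = 0.132), and with Co2 left out of that mean by 0.11 (adjusted p = 0.587). The calls of Acadvl and Vnn1 were lost without WY replicate 1 or 3 or Co1 replicate 1, and that of Aldh3a2 without WY replicate 1. The other 11 calls were kept without any 1 array. Of these, Hadha, Eci1 and Acaa2 were lost in the fit of WY and Co1 alone (limma adjusted p = 0.164, 0.168 and 0.0568). Aldh3a2, Acadvl and Vnn1 were also lost in that fit (0.123, 0.193 and 0.0743).

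**Figure D2:**
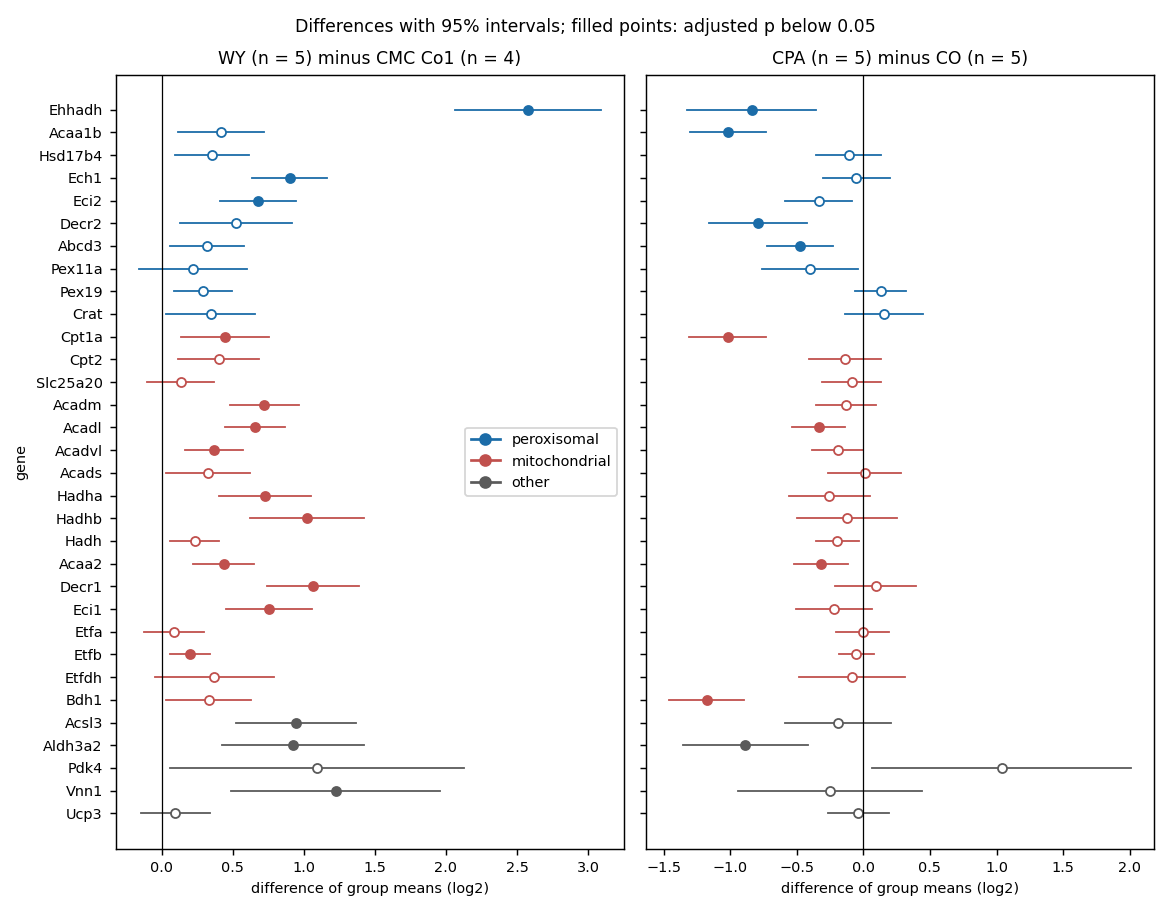
Difference of group means (log2) with 95% intervals for each gene after WY (left) and after CPA (right); filled points passed at an adjusted p below 0.05. After WY all 32 points lie above 0, with Ehhadh farthest at 2.58, and after CPA Bdh1 lies lowest at -1.18.

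The 5 WY livers were not alike. In replicates 1 and 3 all 32 members exceeded every Co1 value, and the median of the members minus their Co1 mean was 0.83 and 0.76. In replicates 5 and 4 it was 0.44 and 0.20, with 25 and 18 members above every control. In replicate 2 it was -0.01, with 7 members above and 7 below every control. That liver was the lowest of the group in 25 of 32 members and in 24.2% of all genes, and replicate 1 was the highest in 26 members and in 26.9% of all genes. Ehhadh in replicate 2, at 12.90, was still above every control.

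Other genes differed with these livers. The mean of 15 acute phase genes was 13.39 in replicate 2 and 9.64, 10.06, 10.92 and 12.05 in replicates 1, 3, 4 and 5, against 9.81 to 10.55 in Co1. The mean of 7 PPARgamma target genes was 7.30 in replicate 2 and 8.41 to 9.39 in the others, against 5.83 to 6.19 in Co1. Of 12 macrophage markers 7 rose with WY (list mean 7.42 to 8.69, against 6.73 to 7.30 in Co1), as did 6 of 9 proliferation genes (5.36 to 7.29 against 4.76 to 5.05), 4 of 15 acute phase genes and 5 of 7 PPARgamma targets. None of 10 hepatocyte markers and none of 6 adipocyte markers were called. The part of these genes in the members' result was not tested.

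**Figure D3:**
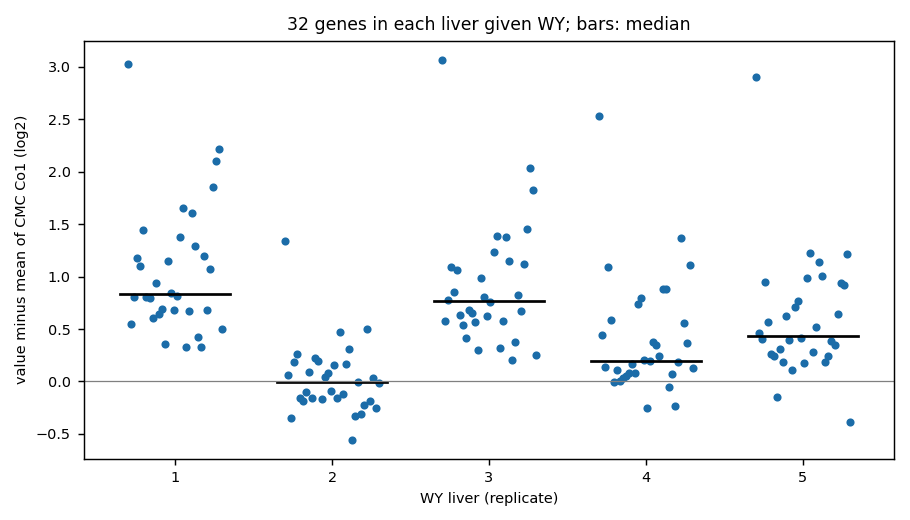
Value of each of the 32 genes minus its Co1 mean (log2) in the 5 WY livers, with the median as a bar. The medians are 0.83, -0.01, 0.76, 0.20 and 0.44 in replicates 1 to 5, and the topmost point of each liver is Ehhadh.

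Without WY replicate 2 the count of members that rose was 25, with 9.31% of all genes called either way, and with only WY and Co1 in the fit it was 9, with 4.35% of all genes. Of 70 other measured genes of the pathway 12 rose and 3 fell after WY. Abcd2, a peroxisomal transporter of very long chains, rose by 2.70 and Acsl4, an acyl-CoA synthetase, by 1.13 (adjusted p = 0.000123 and 0.000711). Ppargc1a, a coactivator of oxidative metabolism, rose by 1.01 and Bdh2 fell by 1.12 (adjusted p = 0.0226 and 0.000303).

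The response to WY was set against that of the livers labelled Pio by testing the difference itself. In those livers 0 members were called by limma (7 at an unadjusted p below 0.05), where 0.022% of all genes were called, and 27 of 32 were lower than in Co5. Their median difference was -0.13, against 0.02 over all genes. Pex11a came nearest: it was 10.18, 10.40, 10.51, 10.18 and 10.26 in the livers labelled Pio and 10.72, 11.84, 10.79 and 11.16 in Co5, without overlap, the only such member, where 1.67% of all genes lay below every control (difference -0.82, SE 0.19, adjusted p = 0.0883). It passed without Pio replicate 3, Co5 replicate 1 or Co5 replicate 3.

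The WY response exceeded the Pio-labelled one in 15 members and fell short in 0, where 1.57% of all genes exceeded it and 1.45% fell short. The difference of the responses was 2.95 (SE 0.36) for Ehhadh, 2.03 (SE 0.52) for Vnn1 and 1.04 (SE 0.27) for Pex11a (adjusted p = 8.62e-09, 0.0136 and 0.0157). Hadhb differed by 1.06 (adjusted p = 0.0194) and was lost without Co1 replicate 1 or Co5 replicate 2, and Pex11a without Co1 replicate 3 or Co5 replicate 2. Cpt1a differed by 0.74 (adjusted p = 0.0416), a call lost in 12 of 18 fits without 1 array (Pio replicates 1, 3, 4 and 5, WY replicates 1, 3 and 5, Co1 replicates 1 and 2, and Co5 replicates 2, 3 and 4; limma adjusted p up to 0.093) and with the block (0.139). The count was 8 without Co5 replicate 2, the liver highest of its group in 24 of 32 members, and 9 with only the 4 groups in the fit.

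CPA lowered members in several steps of the pathway. Of 32 members 9 fell and 0 rose, where 2.7% of all genes fell and 2.62% rose, and the median difference was -0.19 over the members and 0.02 over all genes. Peroxisomal Acaa1b, Ehhadh, Decr2 and Abcd3, mitochondrial Cpt1a, Acadl, Acaa2 and Bdh1, and Aldh3a2 fell. Bdh1 was the lowest: it was 9.55, 10.21, 10.68, 9.36 and 10.16 after CPA and 11.34, 11.11, 11.21, 11.01 and 11.19 in CO. It fell by 1.18 (SE 0.14, a factor of 2.26, adjusted p = 2.72e-09), and all CPA livers lay below all controls.

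Cpt1a was 10.51, 10.08, 10.77, 10.21 and 10.51 after CPA and 11.57, 11.43, 11.47, 11.54 and 11.16 in CO, without overlap. It fell by 1.02 (SE 0.15, limma adjusted p = 4.82e-07). Acaa1b was 13.62, 12.75, 13.86, 13.43 and 13.11 against 14.56, 14.31, 14.36, 14.18 and 14.43, again without overlap, and fell by 1.02 (SE 0.14, adjusted p = 3.62e-07). Ehhadh was 11.51, 10.59, 11.14, 11.66 and 10.62 against 11.74, 12.10, 12.22, 11.82 and 11.84. All CPA livers were below all controls by a narrow margin, and the fall was 0.84 (SE 0.24, adjusted p = 0.0244). Without overlap were 7 members in all, where 2.35% of all genes lay below every control in this way.

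Decr2 fell by 0.79 (SE 0.19, adjusted p = 0.00361), Abcd3 by 0.48 (SE 0.12, adjusted p = 0.0103) and Acadl by 0.34 (SE 0.10, adjusted p = 0.0273). Aldh3a2 was 10.29, 8.99, 10.53, 9.52 and 9.66 after CPA and 11.50, 10.23, 10.51, 10.31 and 10.89 in CO, with 3 CPA livers below all controls (fall of 0.89, SE 0.24, adjusted p = 0.0124). Acaa2 fell by 0.32 (SE 0.10, adjusted p = 0.0481), a call kept in 2 of 10 fits that each left out 1 array, without CPA replicate 1 or 3 (limma adjusted p up to 0.244), and lost in the fit of CPA and CO alone (0.149). The call of Acadl was lost without CPA replicate 2, 4 or 5 or CO replicate 1 or 3, that of Ehhadh without CPA replicate 2 or 5 or CO replicate 2 or 3, and that of Aldh3a2 without CPA replicate 2 or CO replicate 1. The electron transfer genes Etfa, Etfb and Etfdh differed by -0.01, -0.05 and -0.09. Pdk4 was higher, at 6.98, 6.89, 8.63, 7.66 and 6.49 against 6.44, 6.40, 6.44, 5.59 and 6.59, but its difference of 1.04 (SE 0.49) did not pass (adjusted p = 0.238).

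The members were lowest in CPA replicates 2 and 5, whose medians against the CO means were -0.36 and -0.32, against 0.01, -0.07 and -0.21 in replicates 1, 3 and 4. The mean of the acute phase genes was 13.47 and 13.33 in replicates 2 and 5 and 11.12, 11.19 and 11.25 in replicates 1, 3 and 4, against 10.44 to 11.86 in CO. Of the 15 acute phase genes 5 rose with CPA, and 2 of 10 hepatocyte markers and 1 of 9 stellate and matrix markers fell. Their part in the members' result was not tested. Without CPA replicate 2 there were 5 calls, and a fit of the CPA and CO arrays alone gave 5. Of the 70 other pathway genes 2 rose and 6 fell: Ppara itself fell by 1.14 and Abcd2 by 2.26 (adjusted p = 4.01e-05 and 0.00133), Pex26, of the peroxisomal import machinery, fell by 0.67 (adjusted p = 0.0102), and Hacl1, which shortens 2-hydroxy acids, rose by 0.64 (adjusted p = 0.00975).

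DCB changed 1 member. Cpt1a fell and 0 rose, where 1.67% of all genes fell and 2.15% rose, and the median difference was 0.01 over the members and 0.02 over all genes. Cpt1a was 10.22, 10.81, 11.13, 10.60 and 11.12 after DCB, below all 5 CO livers given above, with a fall of 0.66 (SE 0.15, limma adjusted p = 0.00193). In a fit of DCB and CO alone its adjusted p was 0.0537. On other probe sets of Cpt1a the differences were -1.04 and -0.95 (limma adjusted p = 1.81e-06 and 0.000121). Acaa2 was the other of 2 members below every control, as were 1.92% of all genes, and was not called (difference -0.29, adjusted p = 0.11). Of the 70 other pathway genes 3 rose and 5 fell: Ppara fell by 0.67 (adjusted p = 0.0325) and Rxra, the partner of the PPARs, by 0.63 (adjusted p = 0.00522), and Pparg rose by 0.73 (adjusted p = 0.02). Of 10 hepatocyte markers 4 fell.

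CPA and DCB share their controls, so they were compared with each other directly. In 8 members CPA was lower than DCB and in 0 higher, where 2.37% of all genes were lower and 1.74% higher. The peroxisomal members Ehhadh (-1.22, SE 0.24), Acaa1b (-1.12, SE 0.14), Decr2 (-0.71, SE 0.19), Pex11a (-0.61, SE 0.18) and Eci2 (-0.41, SE 0.13) were among them. Ehhadh was 11.92, 12.32, 12.55, 12.18 and 12.65 after DCB, above every CPA liver (adjusted p = 0.000348). Aldh3a2 (-1.18, SE 0.24), Bdh1 (-0.96, SE 0.14) and Hadh (-0.28, SE 0.08), a hydroxyacyl-CoA dehydrogenase, were also lower (adjusted p = 0.000385, 8.02e-07 and 0.0268). The direct difference of Cpt1a, -0.36, was not called (95% interval -0.65 to -0.07, adjusted p = 0.177). Other probe sets of Cpt1a showed a smaller gap. They differed from CO by -1.07 and -1.10 after CPA and by -1.04 and -0.95 after DCB. The calls of Eci2 (without CPA replicate 4 or 5 or any DCB replicate) and Pex11a (without CPA replicate 2, 4 or 5 or DCB replicate 1, 2, 3 or 4) were each lost in 7 of 10 fits without 1 array, with a limma adjusted p of up to 0.193 and 0.104. That of Hadh was lost without CPA replicate 2 or 4 or DCB replicate 1 or 4, and that of Decr2 without CPA replicate 4 or DCB replicate 1. There were 4 calls without CPA replicate 4, 5 without DCB replicate 1 or 4, 5 with each array centred on its median and 3 in a fit of both groups alone.

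PB lowered 2 members at 28 days. Of 32 members 2 fell and 0 rose, where 0.396% of all genes fell and 0.572% rose, and 27 were lower than in water controls, with a median of -0.15 against 0.01 over all genes. Pex11a was 10.31, 9.59, 9.97, 10.09 and 10.00 after PB and 11.03, 11.08, 10.59, 10.69 and 10.45 in H2O, without overlap, and fell by 0.78 (SE 0.18, adjusted p = 0.0109). Slc25a20 was 11.96, 11.50, 11.71, 11.73 and 11.58 against 12.48, 12.20, 12.09, 11.88 and 11.94, with 4 PB livers below all controls. It fell by 0.42 (SE 0.11, adjusted p = 0.0367).

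Both calls were lost without PB replicate 2, H2O replicate 1 or H2O replicate 2, and Slc25a20 alone was lost without any 1 of PB replicates 3, 4 and 5 and H2O replicate 3. PB replicate 2 was the lowest of its group in 24 of 32 members. Etfdh was 11.74, 11.40, 11.65, 11.70 and 11.81 against 12.03, 11.99, 12.04, 12.06 and 11.99 and also did not overlap, but was not called. In all, 5 members and 2.24% of all genes lay below every control. Of the 70 other pathway genes, Acsm1, a medium-chain acyl-CoA synthetase, rose by 0.39 (adjusted p = 0.0315) and Acat1, a mitochondrial acetoacetyl-CoA thiolase, fell by 0.42 (adjusted p = 0.0492).

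At 56 days of PB 0 members were called by limma (1 at an unadjusted p below 0.05), where 0.566% of all genes were called. The median difference was -0.04 over the members and -0.01 over all genes. Vnn1 was 11.82, 11.81, 11.37, 11.57 and 11.64 after PB and 10.35, 10.24, 10.79, 10.73 and 10.23 in H2O. It was the 1 member above every control, as were 1.59% of all genes, but the difference of 1.17 (SE 0.35) had an adjusted p of 0.129. A fit of these groups alone gave 0.000285. Pex11a was 11.09, 10.71, 10.17, 10.68 and 10.65 against 10.26, 10.16, 10.82, 10.38 and 10.23. Of the other pathway genes Slc22a5, the carnitine uptake transporter, rose by 0.70 and Acsm1 by 0.39 (adjusted p = 0.0465 and 0.0393).

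The test of the difference between the PB responses at 56 and 28 days called 0 members and 0 of all genes with limma (4 members and 879 genes at an unadjusted p below 0.05). The difference was 1.06 for Pex11a (95% interval 0.56 to 1.57, adjusted p = 0.208) and 1.76 for Vnn1 (0.78 to 2.74, adjusted p = 0.385).

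CITCO called 0 members in C57BL mice by limma (1 at an unadjusted p below 0.05), where 0.0055% of all genes were called. The members' differences ran from -0.26 to 0.56, with a median of 0.03, against 0.01 over all genes. In hCAR/hPXR mice 0 members were called as well (6 at an unadjusted p below 0.05), where 0.0989% of all genes were called. There the differences ran from -0.31 to 1.22, with a median of 0.09 against 0.01 over all genes. Vnn1 was 10.19, 9.47, 10.45, 10.14 and 10.10 after CITCO and 7.88, 9.42, 9.03, 9.01 and 8.93 in the hCAR/hPXR controls. The groups were just apart, as in 1.28% of all genes, and the difference of 1.22 (SE 0.35) did not pass (adjusted p = 0.184).

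Acaa1b differed by 0.56 (SE 0.14, adjusted p = 0.106) in hCAR/hPXR mice and passed without CMC replicate 2 or 5 of that strain. The difference between the strains' responses was called for 0 members by limma (1 at an unadjusted p below 0.05), where 0.0055% of all genes were called. For Vnn1 it was 0.65 (95% interval -0.33 to 1.63). None of the 70 other pathway genes was called in either strain. The 2 strains' control groups were also compared: 0 members were called (12 at an unadjusted p below 0.05), where 0.126% of all genes were called, and 29 of 32 were lower in the hCAR/hPXR controls. Without Co4 replicate 5 that comparison gave 1 call.

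PBO raised 2 members with related roles. Of 32 members 2 rose and 0 fell, where 0.489% of all genes rose and 0.319% fell, and the median difference was 0.19 over the members and 0.01 over all genes. Vnn1 was 9.93, 9.66, 9.94 and 10.30 after PBO and 7.92, 8.88, 8.62, 8.47 and 7.98 in Co2, without overlap, and rose by 1.58 (SE 0.37, adjusted p = 0.0145). Aldh3a2 was 9.41, 9.14, 9.65 and 9.65 against 8.18, 8.20, 9.05, 8.53 and 8.67, without overlap, and rose by 0.94 (SE 0.25, adjusted p = 0.0463). None of the 10 peroxisomal and 17 mitochondrial members was called, though Eci2 and Acadl were also above every control, so that 4 members and 1.51% of all genes were.

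Both calls were lost without PBO replicate 4. Aldh3a2 alone was lost without PBO replicate 1 or 3 or Co2 replicate 1, 2, 4 or 5. Both turned to lower values when the mean of the 5 C57BL CMC cohorts served as the control, with -0.16 for Vnn1 (adjusted p = 0.751) and -0.61 for Aldh3a2 (adjusted p = 0.0181). Of the 70 other pathway genes Phyh, the peroxisomal oxidase of phytanic acid, fell by 0.36 (adjusted p = 0.000349). Cd36, a fatty acid transporter counted here with the PPARgamma targets, rose by 1.90 (adjusted p = 0.000349).

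In the livers labelled MePy 1 member rose and 0 fell, where 0.148% of all genes rose and 0.033% fell, and the median difference was 0.14 over the members and 0.01 over all genes. Vnn1 was 11.81, 11.80, 12.18, 11.17 and 12.21 against 10.74, 9.41, 10.22 and 10.41 in Co3, without overlap, and rose by 1.64 (SE 0.37, a 3.12-fold rise, limma adjusted p = 0.023). Acaa1b and Acadm also lay above every control without being called, so that 3 members and 1.62% of all genes did. The Vnn1 call was lost without MePy replicate 3 or 5 or Co3 replicate 2, 3 or 4. It also rests on Co3 as the control, which the label assigns. The Vnn1 means of Co3, Co4 and Co5 spanned 1.70. Ehhadh was 11.85, 11.58, 12.06, 12.08 and 12.84 against 11.70, 12.04, 11.61 and 11.51, with overlap. Of 7 PPARgamma targets 5 rose, and their mean was 7.90, 8.19, 8.53, 5.87 and 8.26 in the livers labelled MePy against 5.75 to 5.99 in Co3. Replicate 4, lowest in Vnn1 at 11.17, was thus also lowest in these targets. None of the 70 other pathway genes was called.

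The vehicle controls themselves differed. Across the 5 C57BL cohorts given CMC, 29 of 32 members differed by limma's F test, where 33.2% of all genes did. The range of cohort means had a median of 0.94 over the members and 0.33 over all genes. Co2 was the lowest cohort in 27 of 32 members, and Co5 the highest in 13. The treated groups of Co2 and Co4 were injected, those of Co1 and Co5 were dosed by gavage and that of Co3 through food. The part of the route in the cohort differences was not tested. The gap was widest for Vnn1 (3.13), Pdk4 (2.91), Etfdh (2.22) and Hadhb (2.19). Etfdh, which hands electrons from the flavoprotein to ubiquinone, was 8.14, 8.64, 10.14, 9.78 and 9.57 in Co2 and 11.51, 11.72, 11.60 and 11.09 in Co3.

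Co2 replicates 1 and 2 lay lowest within their cohort in Etfdh, as in Ehhadh (9.57 and 9.52 against 11.15, 10.74 and 10.54). Without Co2 the count was 10, with 12.6% of all genes called, and without Co1 and Co2, both left out after the data were seen, it was 3, with 2.65% of all genes. Those 3 were Pex11a, Pdk4 and Vnn1. Over all 19 groups, Co2 or the PBO group it controls had the lowest mean in 22 members, and these 2 groups were the 2 lowest in 18. WY had the highest mean in 18. What set Co2 and PBO apart was not tested, and each treated group is therefore read here against its own cohort. The mean of the CMC cohorts served only as an alternative control.

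**Figure D4:**
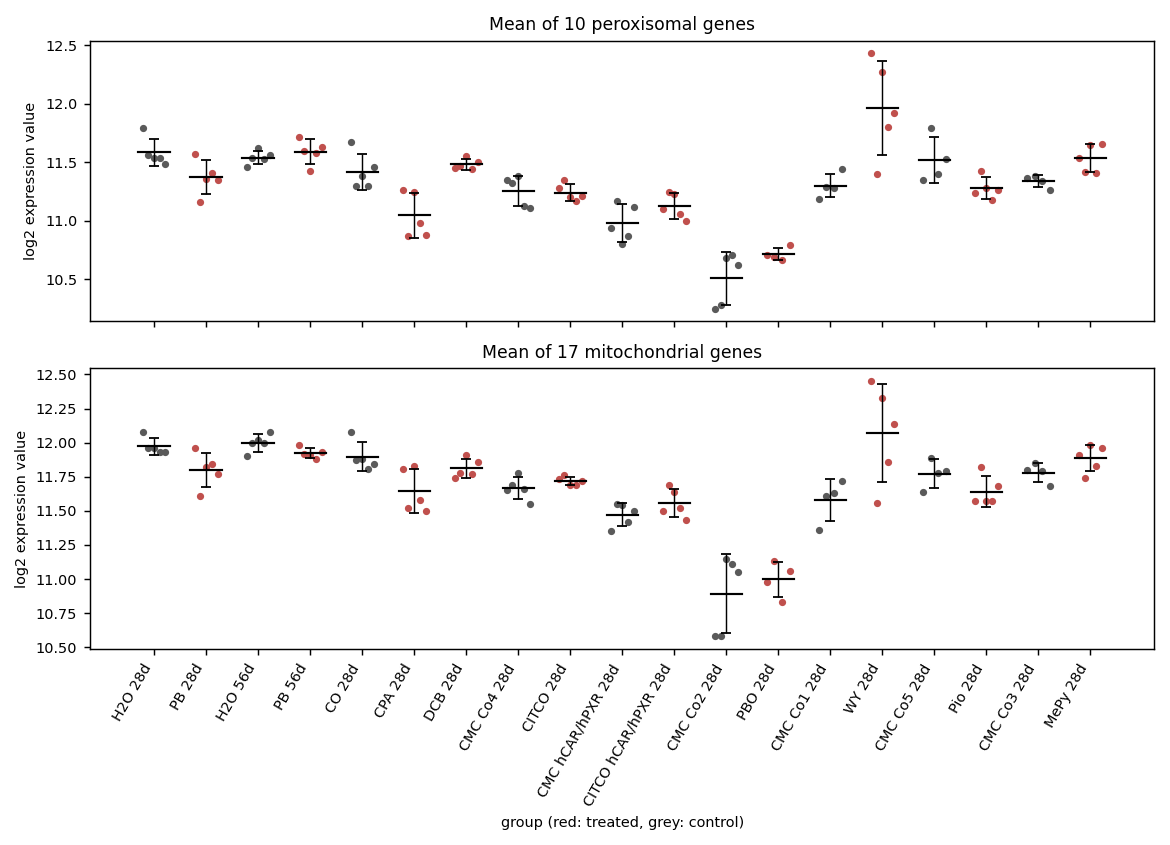
Mean log2 value of the 10 peroxisomal (top) and 17 mitochondrial (bottom) genes on each array in 19 groups, with the group mean and SD. Co2 and PBO lie lowest in both panels, and WY has the highest mean and the widest spread.

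The members' spread between mice of 1 group was close to that of other genes, with a median SD within groups of 0.226 over the members and 0.201 over all genes. Pdk4 (SD 0.805), Vnn1 (0.573), Ehhadh (0.399) and Aldh3a2 (0.386) varied most, and Etfb least (0.0981). Pdk4 spanned 7.31, 11.11, 8.75 and 8.98 in Co5, a wider range than any difference of its group means against a control, which ran from -1.10 to 1.09. In PB livers at 28 days Vnn1 was 11.60, 8.46, 10.60, 11.57 and 10.68, the largest spread of this gene (SD 1.28).

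**Figure D5:**
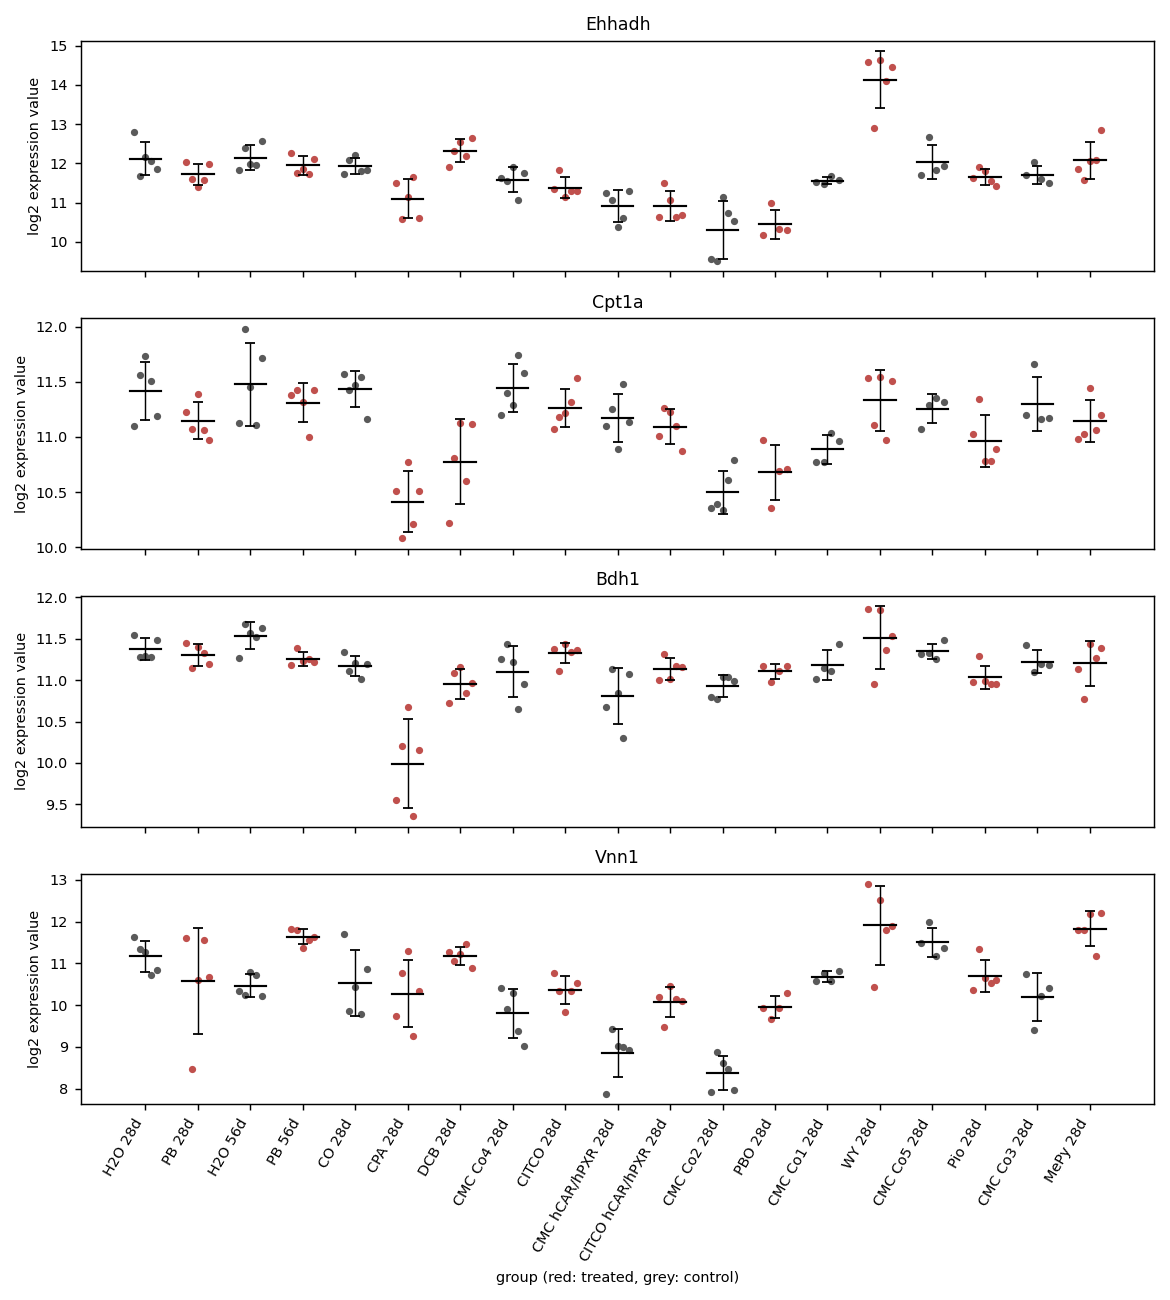
Log2 values on each array for Ehhadh, Cpt1a, Bdh1 and Vnn1 in 19 groups, each treated group (red) beside its control (grey), with mean and SD. Ehhadh stands out after WY (12.90 to 14.63), Bdh1 and Cpt1a lie lowest after CPA, and Vnn1 has its lowest mean in Co2 (8.37).

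Further probe sets measured 18 of the 32 members, 25 probe sets in all. For 24 pairs of a called member and another of its probe sets, the difference had the same direction in all 24 and passed in 13. After WY, Hadhb rose by 0.79 on its second brightest probe set and Cpt1a by 0.55 and 0.71 on its other probe sets. Among those that did not pass after WY was the other probe set of Decr1 (0.48, limma adjusted p = 0.0502). The other probe sets of Acaa2 (0.39 and 0.35) and the dimmest of Hadhb (0.32) did not pass either (adjusted p = 0.0947, 0.555 and 0.384). Where the probe set used did not pass after WY, another one did for Hadh (0.54 and 0.41), Hsd17b4 (0.59) and Crat (0.94). After CPA, the other probe set of Bdh1 fell by 1.09.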

How the data were processed

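Liver RNA of 91 mice was hybridised to Affymetrix arrays, 1 array per mouse. The authors deposited log2 values, 1 for each probe set, which RMA had produced according to the submitters' processing notes. RMA makes the arrays' distributions equal and so hides shifts shared by all transcripts. The RMA version and any genome build are not given in the sources used here. Of 45037 probe sets, 34945 carried 1 gene symbol in GEO's platform annotation, 932 several and 9160 none. For a gene with several such probe sets the brightest on average was used, which gave 18193 genes.

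A means model with 1 coefficient for each of the 19 groups was fitted with limma 3.58.1 in R 4.3.3 (72 residual degrees of freedom, eBayes with a mean-variance trend). Tests were two-sided, with p-values adjusted by Benjamini and Hochberg over all 18193 genes and a threshold of 0.05. With 4 or 5 arrays in a group, precision is limited by that number. The fit takes the spread of a gene as shared by all 19 groups, though the groups differed. Hadha, for example, had an SD of 0.675 in WY and of 0.248 pooled within groups.

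Members, gene lists and tests were chosen with earlier results of these data known. All measured members were named, and up to 4 called genes with the largest change of 70 measured from 79 other pathway genes. Lists of cell markers were described by counts: besides those named in the report, 1 of 9 lymphocyte and 1 of 8 endothelial markers rose after WY, 1 of 12 macrophage and 1 of 10 hepatocyte markers fell after PBO, 2 of 15 acute phase genes fell and 1 of 7 PPARgamma targets rose after DCB, and no cholangiocyte or muscle marker was called in any comparison. The design text gives randomly assigned mice, so replicates were taken as separate animals. Replicate numbers did not pair the mice: correlations of same-numbered arrays ran from -0.321 to 0.223, and in 0 of 10 comparisons was every one over 0.1. Protein sequences were not used here. For the 2 comparisons between control groups, the replicate number alone served as the block. Alternatives are given in the closing section. The 95% intervals are those of the fit.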

Additional observations from a re-analysis of the deposited data

Results flagged for a closer look

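Among 285 sets of arrays (19 groups for each of 13 members and the 2 organelle means), 14 held an array far from the others of its group, where chance gives about 1 in 20, or 14.2 sets. In CITCO replicate 2 Ehhadh was 11.83 (others 11.15 to 11.34) and Bdh1 11.11 (others 11.34 to 11.43). In WY replicate 2 Acaa1b was 14.47 (others 14.85 to 14.98). In PB livers at 56 days Cpt1a was 11.0 in replicate 4 (others 11.32 to 11.43) and Slc25a20 12.25 in replicate 1 (others 12.00 to 12.05). In Co3 replicate 2 Cpt1a was 11.66 (others 11.16 to 11.20). In CO replicate 1 Acadm was 13.21 (others 12.70 to 12.84) and the mean of the mitochondrial genes 12.08 (others 11.81 to 11.88), and in CO replicate 4 Pdk4 was 5.59 (others 6.40 to 6.59). In H2O livers at 56 days Decr1 was 12.28 in replicate 5 (others 12.14 to 12.17) and Pdk4 8.43 in replicate 2 (others 6.32 to 6.88). In H2O livers at 28 days replicate 1 had a peroxisomal mean of 11.79 (others 11.49 to 11.56) and a mitochondrial mean of 12.08 (others 11.93 to 11.96). In the livers labelled Pio, Bdh1 was 11.29 in replicate 2 (others 10.95 to 10.99).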

How the results depend on the processing

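The number of members called moved with several settings, and the cause was not tested. Smaller shifts of a count are mostly not listed here. With only the groups compared in the fit, the spread was estimated from those arrays alone. The SE of Hadha after WY was then 0.28, larger than in the main fit. That of Vnn1 at 56 days of PB was 0.12, smaller than in the main fit. The counts were 1 for PB at 56 days, 5 for CPA, 0 for DCB, 1 for PBO and 9 for WY. They were 0 for the livers labelled MePy, 9 for WY minus the Pio-labelled response and 3 for CPA against DCB. With the mean of all probe sets of a gene they were 1 for PB at 28 days and 1 for PBO. In that setting the CPA calls of Abcd3, Acaa2 and Acadl were lost too (limma adjusted p = 0.103, 0.506 and 0.285). So was the WY call of Acaa2 (0.191). Centring each array on its median gave 5 for CPA against DCB. The counts with the replicate block, whose numbers do not pair the mice, were 1 for PB at 28 days and 0 for PBO. They were 0 for the livers labelled MePy, 8 for WY minus the Pio-labelled response and 11 for WY. With the mean of the 5 C57BL CMC cohorts as control, they were 12 for CITCO in C57BL (10 higher, 2 lower), 20 for PBO (2 higher, 18 lower), and 27 for WY and 19 for the livers labelled MePy (all higher), where 10.4%, 26.6%, 13.6% and 15.3% of all genes were called, and Vnn1 and Aldh3a2 after PBO turned to -0.16 and -0.61. Leaving Co2 out of that mean, an alternative chosen after seeing the data, gave 4 for CITCO (all lower) and 10 for the livers labelled MePy (all higher), where 3.03% and 6.81% of all genes were called. The CMC cohorts themselves gave 10 without Co2 and 3 without Co1 and Co2.

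Leaving out 1 array at a time, the counts ran from 0 to 3 for PB at 28 days, 5 to 9 for CPA, 0 to 2 for PBO, 11 to 25 for WY, 8 to 21 for WY minus the Pio-labelled response, 4 to 8 for CPA against DCB, and 28 to 29 for the CMC cohorts. They ran from 0 to 1 for CITCO in hCAR/hPXR mice, the livers labelled Pio, those labelled MePy, and the 2 strains' controls. They stayed at 1 for DCB and at 0 for PB at 56 days, CITCO in C57BL, and the differences between PB times and between strains. Of 89 results of single members, 57 kept their direction and side of the threshold with only the groups compared in the fit, 71 with the replicate block, 79 with the mean of all probe sets, 82 with centred arrays, 85 without the mean-variance trend and 88 among genes with a mean of at least 5. Acaa1b lay near the upper end of the scale and Ucp3, at 5.18 to 6.10, near the array medians.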

Other observations

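Cyp4a14, a fatty acid omega-hydroxylase and target of PPARalpha outside the set, was 14.32, 13.81, 14.30, 14.02 and 14.15 in WY replicates 1 to 5 and averaged 11.83 in Co1. The difference of 2.29 (SE 0.87) did not pass (limma adjusted p = 0.0733), with values near the upper end of the scale. After CPA it was 12.05, 6.08, 10.05, 8.01 and 7.27 in replicates 1 to 5 and averaged 11.89 in CO, and it fell by 3.20 (SE 0.82, adjusted p = 0.00879). After 28 days of PB it was 12.05, 6.61, 7.38, 9.48 and 11.01, and the difference of -1.91 did not pass (adjusted p = 0.407). Plin2, a lipid droplet coat protein, fell by 0.68 after 28 days of PB (adjusted p = 0.0279), and Fgf21, a fasting hormone, differed by -2.48 in the livers labelled Pio (adjusted p = 0.174).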
